A study of Mus musculus with 10 samples.

Results

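The 40 genes described here mostly encode the contractile filaments of heart muscle and the proteins of its Z-disc and M-band. Among them are 7 stretch and stress responsive genes, not all of which encode proteins of those structures. The 40 genes were chosen by gene symbol, and every probe set that the array annotation gives to 1 of those symbols was taken. The array held 65 probe sets of 39 of the 40 genes, out of 22690 probe sets and 12394 genes in all, and Nexn is not listed in that annotation. By role, the array held 8 of 8 thick filament genes, 9 of 9 thin filament genes, 5 of 5 genes of titin and the M-band, 10 of 11 Z-disc genes and 7 of 7 stretch and stress responsive genes. Each gene is represented by its brightest probe set that carries 1 symbol.

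Right ventricular RNA of 10 mice (strain 129SV) was hybridised to Affymetrix expression arrays, 1 per mouse. The groups were trained plakoglobin (+/-) mice (n = 4), trained wildtype mice (n = 4), 1 untrained plakoglobin (+/-) mouse and 1 untrained wildtype mouse. Plakoglobin (gene Jup) is a protein of desmosomes and adherens junctions, and the (+/-) mice are heterozygous for it. Training was swimming in water of 35 °C, lengthened from 5 to 90 min and done 6 times per week. All trained mice were 6 months old, 2 of each sex in either genotype. The 2 untrained mice were 10 months old and female, so training and age cannot be told apart. The titles of the 2 untrained samples also carry numbers far from those of the trained ones. The labels do not say what these title numbers stand for, and whatever goes with them cannot be told apart from training either. Mice are numbered here in record order, and the numbers are only names. In the trained plakoglobin (+/-) group mice 1 and 2 were males and 3 and 4 females, and in the trained wildtype group mice 1 and 3 were males and 2 and 4 females.

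A sarcomere is built from thick filaments of myosin, which pull on thin filaments of actin, tropomyosin and troponin. Thin filaments are anchored at the Z-disc by alpha-actinin, thick filaments are cross-linked at the M-band, and titin spans from one to the other. Rodent hearts under load are known to shift between isoforms of these proteins, for example towards beta myosin heavy chain Myh7 and skeletal alpha-actin Acta1. They are also known to shift towards the natriuretic peptide Nppa. Csrp3, Ankrd1 and Fhl2 are known as stretch sensors or stretch-responsive genes.

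The start regions of 3 genes are printed first, because Pdlim3 and Alpk3 lay apart between trained and untrained mice and Acta1 is the classic load-responsive actin. Sequences are RefSeq, build GRCm38.p6, 250 bases before to 50 after the annotated start, 5′ to 3′ on the gene's strand, and capitals mark matches to 4 motifs searched on both strands. The motifs were the TATA box TATAAA, the MCAT core CATTCC (bound by TEAD factors), the CArG box (bound by serum response factor) and the MEF2 motif. Pdlim3 lies at chr8:45885237-45885536 (plus strand), Alpk3 at chr7:81057350-81057649 (plus strand) and Acta1 at chr8:123894726-123895025 (minus strand).
Pdlim3: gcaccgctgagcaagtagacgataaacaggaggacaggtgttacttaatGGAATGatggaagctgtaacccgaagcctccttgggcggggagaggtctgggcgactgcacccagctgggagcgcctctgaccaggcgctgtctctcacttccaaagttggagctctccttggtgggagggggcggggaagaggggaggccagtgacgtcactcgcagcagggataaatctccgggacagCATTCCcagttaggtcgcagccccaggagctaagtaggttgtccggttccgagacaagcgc
Alpk3: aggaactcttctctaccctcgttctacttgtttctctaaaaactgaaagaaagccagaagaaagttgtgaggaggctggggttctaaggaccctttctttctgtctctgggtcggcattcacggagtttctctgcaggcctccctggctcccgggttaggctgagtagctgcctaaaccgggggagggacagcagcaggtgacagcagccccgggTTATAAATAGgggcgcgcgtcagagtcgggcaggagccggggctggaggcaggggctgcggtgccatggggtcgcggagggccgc
Acta1: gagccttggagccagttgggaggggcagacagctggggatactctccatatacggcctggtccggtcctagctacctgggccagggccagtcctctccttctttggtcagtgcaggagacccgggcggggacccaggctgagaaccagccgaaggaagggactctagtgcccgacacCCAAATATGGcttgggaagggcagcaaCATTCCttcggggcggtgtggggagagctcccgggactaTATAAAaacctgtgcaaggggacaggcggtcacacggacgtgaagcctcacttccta
Pdlim3 holds CATTCC on both strands, Alpk3 holds TATAAA inside a MEF2 motif, so that these 2 matches overlap, and Acta1 holds TATAAA as well as CATTCC and one CArG box. Of the 40 genes, 34 had an entry in the promoter table. A CArG box was found in 9 of these 34 genes (26.5%: Acta1, Actc1, Fhl1, Fhl2, Ldb3, Myl3, Myl7, Myom1 and Nebl), against 1.81% of 27025 genes in the table. CATTCC was found in 13 of 34 (38.2%), against 16.6% of all genes, TATAAA in 10 of 34 (29.4%), against 15.7%, and the MEF2 motif in 6 of 34 (17.6%), against 3.70% of all genes. Counted per window of 300 bases, 11 of the 48 windows of these genes held a CArG box, 13 CATTCC, 10 TATAAA and 6 the MEF2 motif. The shares over all 32851 windows were 1.63% for the CArG box, 14.7% for CATTCC, 13.6% for TATAAA and 3.19% for the MEF2 motif. These are matches of letters, not measured binding sites, and a gene without a match in this window may hold one elsewhere.

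Values are MAS5 signals on a linear scale, scaled by the authors so that every array has the same trimmed mean of 2500. Array medians ran from 897.85 to 1149.6, and Pearson correlations between arrays from 0.878 to 0.941 on the log2 scale. Each array carries GAPDH control probe sets near the 3′ and the 5′ end of the transcript, and the ratio between them reflects RNA quality. On 3 arrays this GAPDH ratio was above 2: it was 2.98 in trained plakoglobin (+/-) mouse 1, 2.50 in trained wildtype mouse 1 and 17.8 in trained wildtype mouse 2, against 0.849 to 1.02 on the other 7 arrays. The same ratio for the actin control was 2.65 and 3.05 in the first 2 of these mice but 1.29 in trained wildtype mouse 2, against 0.932 to 1.24 on the other 7 arrays, so the 2 controls differ for that mouse. Several differences below are also given without the 3 arrays. Of the 65 probe sets, 55 passed the filter on low signals (36 of 39 genes). The representing probe sets of Myl7 (atrial regulatory light chain, signals 40.0 to 729.1), Tnni1 (slow skeletal troponin I, 44.0 to 150.5) and Sln (sarcolipin, 68.5 to 700.1) did not, and all 10 cardiomyocyte markers listed for a check of the tissue did. The summed signal of the cardiomyocyte markers was 890533.9 to 1081278.4 in trained mice and 1019691.3 to 1263912.9 in untrained mice. In whole tissue, fewer cells of a type and less RNA per cell cannot be told apart.

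Jup itself had 1991.7, 3519.9, 2229.7 and 2362.8 in trained plakoglobin (+/-) mice, against 2928.3, 3206.9, 3995.5 and 4322.0 in trained wildtype mice. The groups overlapped, with a log2 difference of -0.53 (SE 0.24; limma unadjusted p = 0.0485, adjusted p = 1.0). The untrained mice went the other way, with 3156.9 in the plakoglobin (+/-) mouse and 2386.8 in the wildtype mouse. No source used here says whether this probe set lies in the targeted part of Jup, so it does not check the labels.

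The first comparison asks which of these genes differ in mice trained by swimming. Pdlim3 was about 4-fold higher in trained than in untrained mice, and it was the single probe set of the 55 that passed the threshold. All 8 trained mice also lay above both untrained mice for Myom2 and Myh7 and below both for Alpk3, Myl1, Myl2, Tnni3 and 2 probe sets of Myl3, though none of these passed the test across the array. For all other member probe sets tested, trained and untrained mice overlapped. Over the whole array 85 of 13576 probe sets were called (0.626%; 37 higher, 0.273%, and 48 lower, 0.354%), and 1 of 55 member probe sets is 1.82%. At an unadjusted p under 0.05 there were 10 member probe sets (18.2%), against 8.68% of all probe sets tested. Trained and untrained mice did not overlap for 9 member probe sets (16.4%), against 9.24% of all. In 3 of these the trained mice were higher (against 4.63% of all) and in 6 lower (against 4.61% of all).

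The difference and its error came from limma with terms for training, genotype and sex. Because both untrained mice were female, the fitted difference equals that between the 4 trained and the 2 untrained females, and the trained males enter only the estimate of spread. The value without the sex term, which uses all 8 trained mice, is therefore also given for Pdlim3, Alpk3, Myom2, Myh7, Tcap, Cryab and Fhl2.

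**Figure D1:**
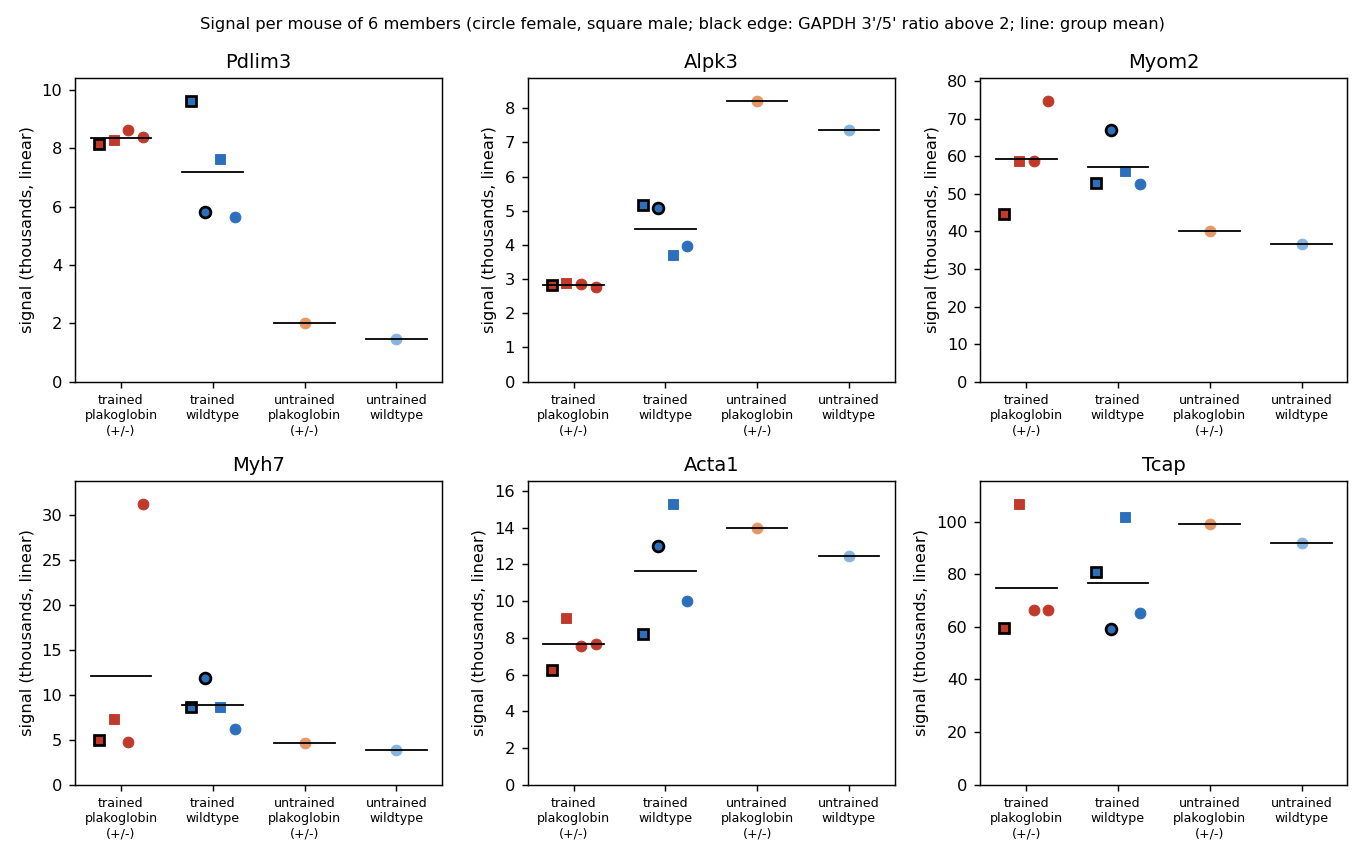
Signal, divided by 1000 (linear axes from 0), of 6 genes in each of the 10 mice, by group, with circles for females, squares for males, black edges for the 3 arrays with a GAPDH ratio above 2 and a line at each group mean. Pdlim3 lies between 5657.2 and 9620.1 in trained mice and at 2006.2 and 1470.2 in the untrained mice, Alpk3 shows the opposite order, and 1 trained mouse with 31249.3 stands apart for Myh7.

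Among Z-disc genes, Pdlim3 (actinin-associated LIM protein, which binds alpha-actinin at the Z-disc) had 8156.0, 8287.4, 8627.9 and 8385.5 in trained plakoglobin (+/-) mice and 9620.1, 5807.7, 7619.4 and 5657.2 in trained wildtype mice, against 2006.2 in the untrained plakoglobin (+/-) mouse and 1470.2 in the untrained wildtype mouse. The lowest trained value was well above the higher untrained one. The log2 difference was 2.02 (SE 0.22; 95% interval 1.54 to 2.50), a 4.07-fold higher signal, with a limma adjusted p = 0.00187. It was 2.16 without the sex term (adjusted p = 0.000724) and 2.04 without the 3 arrays of high GAPDH ratio (adjusted p = 0.000223). Left out 1 mouse at a time the difference stayed between 1.93 and 2.12, and the call was lost without the untrained plakoglobin (+/-) mouse (2.12, adjusted p = 0.0579), which leaves 1 untrained mouse.

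The other PDZ and LIM proteins of the Z-disc were not called. Ldb3 (cypher) differed by a log2 value of 0.32 (SE 0.17), Pdlim5 (enigma homolog) by 0.25 (SE 0.20) and Pdlim1 by -0.16 (SE 0.27). Tcap (telethonin, which caps the amino-terminal end of titin) had 59573.7, 106693.2, 66223.2 and 66477.5 in trained plakoglobin (+/-) mice and 80648.0, 59115.3, 101711.5 and 65323.4 in trained wildtype mice, against 99004.3 and 91982.5 in the untrained plakoglobin (+/-) and wildtype mouse. The 2 highest trained values were both from males, above both untrained mice, so the groups overlapped. The log2 difference for Tcap was -0.57 (SE 0.22; adjusted p = 0.470), and -0.37 without the sex term. 

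Cryab (alpha-B crystallin, a small heat shock protein that protects Z-disc proteins) had 116394.5, 66737.0, 68553.4 and 75912.7 in trained plakoglobin (+/-) mice and 112236.5, 83996.4, 71940.2 and 79151.6 in trained wildtype mice, against 103573.9 in the untrained plakoglobin (+/-) mouse and 136342.7 in the untrained wildtype mouse. The 2 trained mice with high values were mouse 1 of each group, which are males with a high GAPDH ratio. On the log2 scale Cryab differed by -0.63 (SE 0.24; adjusted p = 0.446) and -0.64 without the 3 arrays (adjusted p = 0.0750). Without the sex term the difference was -0.52. A second Cryab probe set, at 48797.4 to 119044.3, differed by -0.62 (SE 0.24), and so ran the same way. The remaining one was far dimmer, at 311.0 to 1428.7, and had the opposite sign (0.76, SE 0.61). Of the remaining Z-disc genes, Smpx (a small muscle protein) differed by 0.31 (SE 0.17), Actn2 (alpha-actinin) by -0.23 (SE 0.17), Nebl (nebulette, which links actin to the Z-disc) by 0.19 (SE 0.70) and Myoz2 (calsarcin-1, a calcineurin-binding protein) by 0.14 (SE 0.17). In all, 6 of 10 Z-disc genes tested were higher and 4 lower, with a median log2 difference of 0.17.

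In the group of titin and the M-band, Alpk3 (an alpha-type kinase whose loss gives cardiomyopathy) had 2817.8, 2875.3, 2857.3 and 2772.8 in trained plakoglobin (+/-) mice and 5159.6, 5073.1, 3708.4 and 3958.5 in trained wildtype mice, against 8215.5 in the untrained plakoglobin (+/-) mouse and 7369.4 in the untrained wildtype mouse. Every trained mouse was below both untrained mice, and the trained plakoglobin (+/-) mice were the lowest and lay within a narrow range. Alpk3 had a log2 difference of -1.13 (SE 0.25; adjusted p = 0.0923), which is 2.19-fold lower in trained mice. It passed the threshold without the sex term (-1.14, adjusted p = 0.0424) and without the 3 arrays of high GAPDH ratio (-1.26, adjusted p = 0.0104). It was -0.73 when the untrained plakoglobin (+/-) mouse was left out and -1.53 when the wildtype one was.

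Myom2 (M-protein, an M-band cross-linker) had 44735.9, 58846.2, 58888.9 and 74781.0 in trained plakoglobin (+/-) mice and 52977.4, 66917.8, 56088.9 and 52681.4 in trained wildtype mice, against 40112.5 in the untrained plakoglobin (+/-) mouse and 36710.9 in the untrained wildtype mouse. All trained mice were higher, the lowest of them being an array with a high GAPDH ratio. The log2 difference was 0.71 (SE 0.19; adjusted p = 0.190), with 0.62 to 0.80 when 1 mouse was left out. Without the sex term the difference of Myom2 was 0.59 (limma adjusted p = 0.273). Its partner at the M-band, Myom1 (myomesin), had a difference of -0.06 (SE 0.20), Ttn (titin) of 0.17 (SE 0.20; 0.06 without the 3 arrays of high GAPDH ratio) and Capn3 (a titin-bound calpain) of 0.24 (SE 0.34). Thus 3 of these 5 genes were higher and 2 lower, with a median of 0.17.

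Among thick filament genes, Myh7 (beta myosin heavy chain) had 4932.1, 7328.8, 4795.5 and 31249.3 in trained plakoglobin (+/-) mice and 8686.5, 11876.0, 8608.5 and 6171.7 in trained wildtype mice, against 4627.1 in the untrained plakoglobin (+/-) mouse and 3886.5 in the untrained wildtype mouse. All 8 trained mice were higher, but 2 of them by little, and trained plakoglobin (+/-) mouse 4 was far above the rest. For Myh7 the log2 difference was 1.27 (SE 0.60; adjusted p = 0.594). It was 0.66 without trained plakoglobin (+/-) mouse 4 and 1.70 without mouse 3 of that group. Without the sex term the difference of Myh7 was 1.02 (limma adjusted p = 0.659).

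Myh6 (alpha myosin heavy chain, the main form of the adult mouse ventricle) showed a log2 difference of -0.03 (SE 0.15), with signals of 217556.3 to 283419.2 in trained mice and 255584.8 and 269197.0 in the untrained plakoglobin (+/-) and wildtype mouse. The groups overlapped fully. Myl2 (ventricular regulatory light chain) had 222536.8 to 298801.3 in trained mice, against 406537.1 in the untrained plakoglobin (+/-) mouse and 322870.9 in the untrained wildtype mouse, with a log2 difference of -0.38 (SE 0.15; adjusted p = 0.470).

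Myl3 (ventricular essential light chain) had 247130.8, 241125.8, 205337.3 and 268683.5 in trained plakoglobin (+/-) mice and 271494.8, 265473.4, 267566.4 and 296755.5 in trained wildtype mice, against 336240.9 and 301764.4 in the untrained plakoglobin (+/-) and wildtype mouse. All trained mice were lower, with a log2 difference of -0.31 (SE 0.16; adjusted p = 0.656). A second Myl3 probe set ran the same way (-0.49, SE 0.16), but the remaining one had 138712.7 to 205816.5 in trained mice, against 139801.9 and 137050.8 in the untrained plakoglobin (+/-) and wildtype mouse, a difference of 0.33 (SE 0.18), so the probe sets of Myl3 disagree in sign. Myl1 (a skeletal essential light chain) had 751.1, 2088.7, 1928.7 and 1339.7 in trained plakoglobin (+/-) mice and 151.0, 1999.7, 2016.2 and 1657.7 in trained wildtype mice, against 2250.3 and 2610.3 in the untrained plakoglobin (+/-) and wildtype mouse. The 2 lowest values were those of mouse 1 of each trained group, both with a high GAPDH ratio, and the log2 difference of -0.50 had an SE of 0.83. Myl4 (atrial essential light chain) differed by 0.19 (SE 0.28), with -0.41 (SE 0.42) for its second probe set. Mybpc3 (cardiac myosin-binding protein C) differed by -0.04 (SE 0.18). Of 7 thick filament genes tested, 2 were higher and 5 lower, with a median of -0.04, which turned to 4 higher and 3 lower, with a median of 0.02, after quantile normalization.

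All 8 thin filament genes tested had lower fitted values in trained mice, with a median log2 difference of -0.24, and none was called. This count depends on the scaling: after quantile normalization between arrays 4 were higher and 4 lower, with a median of -0.00. Tpm2 (beta-tropomyosin) had 4605.6, 2736.3, 2857.8 and 3807.5 in trained plakoglobin (+/-) mice and 5286.6, 4556.6, 3245.4 and 2860.3 in trained wildtype mice, against 4834.6 and 5578.2 in the untrained plakoglobin (+/-) and wildtype mouse. Only trained wildtype mouse 1 reached the untrained range, and the log2 difference was -0.59 (SE 0.30; adjusted p = 0.650). A further Tpm2 probe set differed by -1.51 (SE 0.49), or -0.57 without the untrained plakoglobin (+/-) mouse, and another by 0.11 (SE 0.38). The probe sets of Tpm2 thus disagree in sign.

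Acta1 (skeletal alpha-actin) had 6242.8, 9107.0, 7569.8 and 7686.9 in trained plakoglobin (+/-) mice and 8209.4, 13004.1, 15302.2 and 9997.7 in trained wildtype mice, against 14009.7 and 12452.0 in the untrained plakoglobin (+/-) and wildtype mouse. Trained wildtype mice 2 and 3 lay within or above the untrained values, and the other 6 trained mice below them. The log2 difference was -0.50 (SE 0.29; adjusted p = 0.726), and -0.88 to -0.13 as 1 mouse was left out. Tnnt1 (slow skeletal troponin T) had 1878.7, 2602.8, 1754.2 and 2651.3 in trained plakoglobin (+/-) mice and 1831.2, 2062.3, 2252.8 and 3727.5 in trained wildtype mice, against 3392.9 and 3138.4 in the untrained plakoglobin (+/-) and wildtype mouse. Trained wildtype mouse 4 was above both untrained mice, and the difference was -0.42 (SE 0.31).

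Tnni3 (cardiac troponin I) was 161865.6 to 217794.5 in trained mice, against 237419.6 in the untrained plakoglobin (+/-) mouse and 246210.3 in the untrained wildtype mouse, with no overlap and a log2 difference of -0.29 (SE 0.15; adjusted p = 0.674). For Tpm1 (alpha-tropomyosin), Tnnt2 (cardiac troponin T), Tnnc1 (cardiac troponin C) and Actc1 (cardiac alpha-actin) the log2 differences were between -0.20 and -0.09, each about the size of its SE or smaller.

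Among stretch and stress responsive genes 2 of 6 tested were higher and 4 lower, with a median of -0.14. Fhl2 (a LIM protein that binds titin and transcription factors) differed by -0.36 (SE 0.16; adjusted p = 0.568) and by -0.16 without the sex term. Rcan1 (regulator of calcineurin, itself a calcineurin target) differed by -0.33 (SE 0.27), with 0.14 without the untrained wildtype mouse, so that its sign rests on that mouse. Csrp3 (muscle LIM protein) had a difference of -0.05 (SE 0.18), Xirp1 (an actin-binding Xin repeat protein) of 0.01 (SE 0.24) and Fhl1 of 0.21 (SE 0.20; 0.07 without the 3 arrays of high GAPDH ratio). Ankrd1 differed by -0.23 (SE 0.50) and its second probe set by -0.06 (SE 0.36), with overlap of trained and untrained mice in both. For comparison, Nppa (atrial natriuretic peptide) had 18636.2 to 34500.7 in trained mice, against 3966.0 and 4350.5 in the untrained plakoglobin (+/-) and wildtype mouse. Nppa was higher in trained mice by a log2 value of 2.66 (SE 0.26, limma adjusted p = 0.00112).

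**Figure D2:**
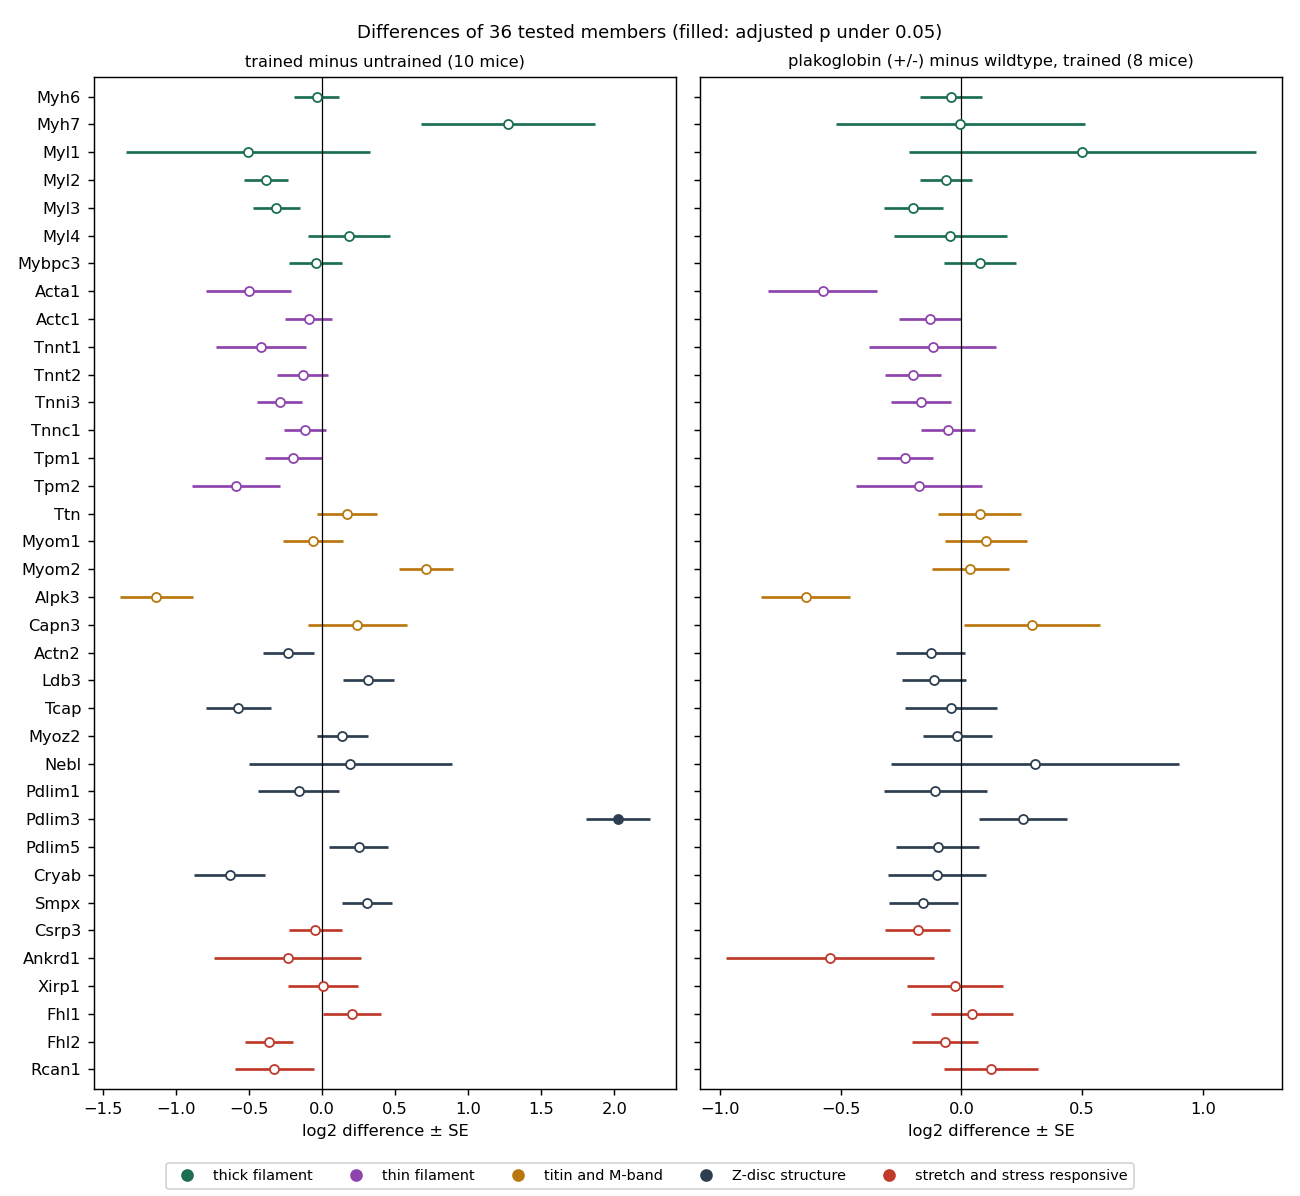
Log2 difference of 36 genes (points, with bars of 1 SE), grouped by role, for trained minus untrained mice at left (10 mice) and for plakoglobin (+/-) minus wildtype mice among the trained at right (8 mice), with filled points for an adjusted p under 0.05. Pdlim3 at 2.02 in the left panel is the only filled point, and Alpk3 is at -1.13 at left and at -0.65 at right.

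Over all 36 genes tested, 13 were higher and 23 lower in trained mice with a median log2 difference of -0.10, against a median of 0.00 over 8365 genes of the array. Here too the scaling mattered: after quantile normalization 19 were higher and 17 lower, with a median of 0.03 over the 36 genes and 0.02 over all genes. Pdlim3 remained the only one called. Without the 3 arrays of high GAPDH ratio 13 were higher and 23 lower, and Alpk3 was called besides Pdlim3, with 1.66% of all probe sets called. The same pair was called without the sex term, with 0.766% of all probe sets called. A separate list of 73 other sarcomere and Z-disc genes had 54 on the array and 39 tested, of which 19 were higher and 20 lower, none called and 5 at an unadjusted p under 0.05, with a median of -0.00. Of these, Myot (myotilin, a Z-disc protein) had 2101.2 to 4015.9 in trained mice, against 5944.7 and 5719.7 in the untrained plakoglobin (+/-) and wildtype mouse (log2 difference -0.97, SE 0.27; adjusted p = 0.228). Hspb7 (a small heat shock protein of muscle) had a larger difference of -1.07 but an SE of 0.76, and was 8074.5 to 16411.8 on the 3 arrays of high GAPDH ratio, against 33546.6 to 64170.5 on the other 7. Tpm4 differed by -0.80 (SE 0.28) and Actn4 by -0.71 (SE 0.20), and both encode forms found outside the sarcomere.

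Markers of other cell types were read beside these values. The summed signal of 9 atrial markers was 76235.5 to 119006.7 in trained mice and 60265.6 to 64926.2 in untrained mice. Nppa, with the values given above, is part of this sum and was the single one called. The sum without Nppa was not taken, so it does not show the other atrial markers to be higher. Of 6 atrial markers tested, 5 were higher and 1 lower in trained mice, with a median log2 difference of 0.18. Among members that mark atrial muscle, Myl7 and Sln were under the filter. Myl4 differed by 0.19 (SE 0.28) and its second probe set by -0.41 (SE 0.42). The skeletal muscle list (12 of 12 on the array) summed to 112156.5 to 179131.7 in trained mice and 127655.6 to 210035.5 in untrained mice, with 9 of 12 under the filter. Leukocyte markers (5 of 5) summed to 6392.8 to 13219.5 in trained mice and 14447.3 to 16269.9 in untrained mice, with 0 of 5 called, and their part in the results above was not tested. Sums for smooth muscle, fibroblasts and endothelium overlapped between trained and untrained mice. Gene by gene, 4 of 5 leukocyte markers were lower in trained mice (median log2 difference -0.90, 2 at an unadjusted p under 0.05), and so were 4 of 5 fibroblast markers (median -0.81, 2 at an unadjusted p under 0.05), 0 of 5 called in either list. The part of the fibroblast markers in the results above was not tested either. The 10 cardiomyocyte markers, which are not among the 40 genes, leaned the same way as those genes. Of them, 2 were higher and 8 lower in trained mice, with a median log2 difference of -0.13 and none called. No marker was at the floor on all arrays.

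The second comparison asks whether the plakoglobin genotype alters these genes in trained mice. None of the 55 member probe sets was called, and none of all 13576 was (0%), in limma with genotype and sex as terms. At an unadjusted p under 0.05 there were 3 member probe sets (5.45%), against 2.01% of all. Trained plakoglobin (+/-) mice lay wholly below trained wildtype mice for Alpk3 and for 1 of the 3 tested probe sets of Cryab and wholly above them for none, which is 3.64% of member probe sets, against 1.6% of all.

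Alpk3, with the values given above, was 2772.8 to 2875.3 in trained plakoglobin (+/-) mice, against 3708.4 to 5159.6 in trained wildtype mice. The log2 difference was -0.65 (SE 0.18; unadjusted p = 0.00597, adjusted p = 1.0), a 1.56-fold lower signal, and -0.44 without the 3 arrays of high GAPDH ratio, which include the 2 highest wildtype mice. In the untrained mice Alpk3 was not lower in the plakoglobin (+/-) mouse, at 8215.5, against 7369.4 in the wildtype mouse. Acta1 was 6242.8 to 9107.0 in trained plakoglobin (+/-) mice, against 8209.4 to 15302.2 in trained wildtype mice. These ranges overlapped, with a log2 difference of -0.58 (SE 0.23; unadjusted p = 0.0303, adjusted p = 1.0) that stayed between -0.76 and -0.40 as 1 mouse was left out.

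The Cryab probe set that did not overlap had 48797.4, 64929.3, 56921.2 and 74395.0 in trained plakoglobin (+/-) mice, against 86422.6, 82128.7, 106809.6 and 74507.0 in trained wildtype mice. The closest pair of mice differed by little (74395.0 and 74507.0), and the log2 difference was -0.52 (SE 0.17; unadjusted p = 0.0143, adjusted p = 1.0). The brightest Cryab probe set had a difference of only -0.10 (SE 0.20), so the probe sets of this gene gave unlike values.

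Ankrd1 (cardiac ankyrin repeat protein, a titin-binding stretch-responsive cofactor) had 16747.0, 64521.3, 32191.5 and 51907.3 in trained plakoglobin (+/-) mice and 41483.1, 58023.2, 93507.1 and 36251.9 in trained wildtype mice. The untrained plakoglobin (+/-) mouse had 48597.1 and the untrained wildtype mouse 53360.9. The log2 difference between trained genotypes was -0.54 (SE 0.43), -0.08 without trained plakoglobin (+/-) mouse 1 and -0.13 without the 3 arrays of high GAPDH ratio. Values of this gene differed more between mice of 1 group than between groups.

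Nebl had 388.5, 2621.3, 3312.9 and 3191.9 in trained plakoglobin (+/-) mice and 400.0, 2111.3, 1791.2 and 3055.4 in trained wildtype mice, with 2228.3 and 2830.8 in the untrained plakoglobin (+/-) and wildtype mouse. The 2 lowest values were again mouse 1 of each trained group, and the log2 difference between trained genotypes was 0.31 (SE 0.60). Capn3 had 1080.1, 1812.2, 1899.7 and 1312.7 in trained plakoglobin (+/-) mice and 1217.6, 906.6, 1606.2 and 1222.1 in trained wildtype mice, with 1210.7 and 980.1 in the untrained plakoglobin (+/-) and wildtype mouse, and its difference was 0.29 (SE 0.28). Both genes overlapped between genotypes.

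For Pdlim3 the genotypes differed by a log2 value of 0.26 (SE 0.18; 95% interval -0.16 to 0.67) and by 0.39 without the 3 arrays of high GAPDH ratio, with the 4 trained plakoglobin (+/-) mice within a narrower range than the 4 trained wildtype mice. Myh7 differed by -0.00 (SE 0.52; 95% interval -1.16 to 1.15), with -0.65 without trained plakoglobin (+/-) mouse 4 and 0.47 without the 3 arrays, so these mice bound the genotype difference of Myh7 only loosely. Myl1 differed by 0.50 (SE 0.72), by -0.38 without trained wildtype mouse 1 and by -0.00 without the 3 arrays. Myl3 differed by -0.20 (SE 0.12).

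All 8 thin filament genes tested had lower fitted values in trained plakoglobin (+/-) mice, with a median of -0.17, none called, and 1 (Acta1) at an unadjusted p under 0.05. After quantile normalization 7 were lower, with a median of -0.14, and without the 3 arrays of high GAPDH ratio 7 were lower, with a median of -0.26. Tpm1 had 186184.0, 181194.5, 188820.0 and 219199.5 in trained plakoglobin (+/-) mice, against 189704.6, 244728.3, 229147.0 and 250709.5 in trained wildtype mice. The ranges overlapped, and the log2 difference was -0.23 (SE 0.12). Tnnt2 had 208641.7, 204174.0, 209722.8 and 234774.9 in trained plakoglobin (+/-) mice, against 238371.1, 232441.8, 230760.7 and 287211.4 in trained wildtype mice, with 1 trained plakoglobin (+/-) mouse inside the wildtype range and a log2 difference of -0.20 (SE 0.12).

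By role, 2 of 7 thick filament genes were higher and 5 lower (median -0.04), 4 of 5 genes of titin and the M-band were higher and 1 lower (median 0.07), 2 of 10 Z-disc genes were higher and 8 lower (median -0.10) and 2 of 6 stretch and stress responsive genes were higher and 4 lower (median -0.05). These counts depend on the scaling: after quantile normalization the thick filament turned to 5 higher and 2 lower (median 0.03), the Z-disc genes were 4 higher and 6 lower, the stretch and stress responsive genes 3 higher and 3 lower, and the group of titin and the M-band again 4 higher and 1 lower. Over all 36 genes, 10 were higher and 26 lower with a median of -0.07, against a median of 0.01 over all genes. After quantile normalization 17 were higher and 19 lower, and without the 3 arrays 13 were higher and 23 lower. Among the 39 other sarcomere and Z-disc genes tested, 22 were higher and 17 lower, with none called, and without the 3 arrays of high GAPDH ratio 17 were higher and 22 lower. The largest differences there were 0.83 for Synpo2 (SE 0.48), 0.80 for Smyd1 (SE 0.45) and 0.75 for Myoz1 (SE 0.41), and for Synpo2 and Smyd1 the 3 arrays of high GAPDH ratio lay below all other 7.

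Whether the genotype difference depends on training rests on the 2 untrained mice, 1 of each genotype. No probe set was called in this test (0%), and 4 member probe sets (7.27%) had an unadjusted p under 0.05, against 3.2% of all. These were the representing probe sets of Tpm1 and Tnnt2 and a further one each of Tpm2 and Myl3. For Tpm1 the untrained plakoglobin (+/-) mouse had 311543.3, above every other mouse, against 212062.7 in the untrained wildtype mouse, and the interaction was -0.79 on the log2 scale (SE 0.26; unadjusted p = 0.0137, adjusted p = 1.0). For Tnnt2 the untrained plakoglobin (+/-) mouse had 302638.2, again above every other mouse, against 227521.6 in the untrained wildtype mouse, with an interaction of -0.61 (SE 0.26; unadjusted p = 0.0398, adjusted p = 1.0). Other probe sets of these genes gave unlike values: the second tested one of Tnnt2 had an interaction of -0.14 (SE 0.29). The further Tpm1 ones had 0.05 (SE 0.59) and 0.58 (SE 0.99), at much lower signals (969.1 to 2272.3 and 817.1 to 3060.3). In both of these Tpm1 probe sets the untrained plakoglobin (+/-) mouse was below the untrained wildtype mouse. The untrained plakoglobin (+/-) mouse was above the untrained wildtype mouse for 23 of the 36 genes tested, against 4226 of 8365 genes of the array. The median log2 difference was 0.11, against 0.00 over all genes, and this compares 1 mouse with 1 mouse.

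Between males and females among the trained mice, none of the 55 member probe sets was called, against 0.0516% of all, and 5 (9.09%) had an unadjusted p under 0.05, against 8.82% of all. They were Fhl2 (log2 difference, male minus female, 0.40), Smpx (-0.37), Myom1 (-0.47), Nebl (-1.64) and 1 probe set of Pdlim5 (-1.38). Of the 3 arrays of high GAPDH ratio 2 were from males, and without these arrays the differences were 0.34 for Fhl2, -0.28 for Smpx, -0.27 for Myom1, -0.51 for Nebl and -0.08 for that probe set of Pdlim5. In the 5 trained mice that are left, again no member was called (0.125% of all were), and 6 probe sets (10.9%) had an unadjusted p under 0.05, against 8.91% of all. Tcap had 106693.2 and 101711.5 in the 2 males, against 66223.2, 66477.5 and 65323.4 in the 3 females, a log2 difference of 0.67 (limma unadjusted p = 0.000719), against 0.40 with all 8 mice. Ankrd1 had 64521.3 and 93507.1 in the 2 males, against 32191.5, 51907.3 and 36251.9 in the 3 females, a log2 difference of 0.96 (limma unadjusted p = 0.00195), against 0.06 with all 8 mice. Its second probe set differed by 0.95, Acta1 by 0.41 and another probe set of Pdlim5 by 0.58. These genes are named because they had an unadjusted p under 0.05 without the 3 arrays, a choice made with their values in view.

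Isoform pairs were followed as the log2 ratio of their signals, set to 0 at the mean of the 2 untrained mice, since levels of different probe sets cannot be set against each other. These ratios are a description with no test. Myh7 over Myh6 was 0.49, 1.02, 0.28 and 2.77 in trained plakoglobin (+/-) mice and 1.20, 1.72, 1.03 and 0.45 in trained wildtype mice, against 0.16 and -0.16 in the untrained plakoglobin (+/-) and wildtype mouse. All 8 trained mice were above both untrained mice, with a mean of 1.12 (SD 0.82, n = 8), and the trained genotypes differed by 0.04 with full overlap.

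Acta1 over Actc1 was -0.69, -0.26, -0.42 and -0.84 in trained plakoglobin (+/-) mice and -0.38, 0.05, 0.33 and -0.44 in trained wildtype mice, against 0.03 and -0.03 in the untrained plakoglobin (+/-) and wildtype mouse. The trained plakoglobin (+/-) mice were all below both untrained mice, the trained wildtype mice lay on both sides of them, and the trained genotypes differed by -0.44 and overlapped. Thus the myosin ratio and the actin ratio did not run the same way in these mice. The ratio of Myl4 over Myl3 was 0.26 to 1.19 in trained mice, against -0.28 and 0.28 in the untrained plakoglobin (+/-) and wildtype mouse. This ratio uses the brightest probe set of each gene, and for both genes the probe sets disagreed in sign for training. Tnnt1 over Tnnt2 (mean -0.33 in trained mice) and Tpm2 over Tpm1 (mean -0.22) overlapped with the untrained mice. Myl1 over Myl3 reached -3.77 in trained wildtype mouse 1. Tnni1 over Tnni3 had a mean of 0.50 and Myl7 over Myl2 of 0.75 in trained mice, but Tnni1 and Myl7 were under the filter on low signals.

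**Figure D3:**
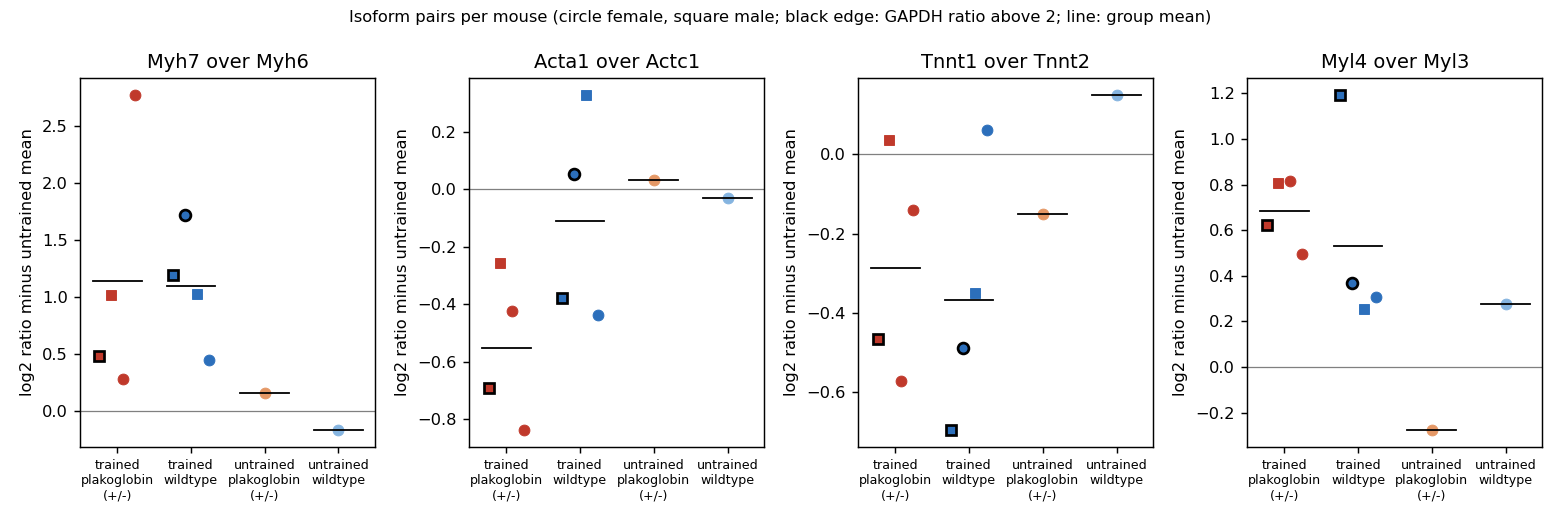
Log2 ratio of the signals of 4 isoform pairs per mouse, minus the mean of the untrained mice (grey line at 0), with circles for females, squares for males, black edges for a GAPDH ratio above 2 and a line at each group mean. Myh7 over Myh6 lies above both untrained mice in all 8 trained mice (0.28 to 2.77), whereas Acta1 over Actc1 runs from -0.84 to 0.33 in trained mice, around the untrained values.

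Several members were read by more than 1 probe set, and some of these gave unlike values on the 3 arrays of high GAPDH ratio. A second probe set of Myh6 had 1631.2, 1873.7 and 375.5 on these arrays (trained plakoglobin (+/-) mouse 1 and trained wildtype mice 1 and 2), against 26566.8 to 44319.5 on the other 7. Against the other 5 trained mice it was 37.5-fold lower, while the brightest probe set of the same gene ran from 217556.3 to 283419.2 over all mice. A probe set annotated to both Myh6 and Myh7, and so given to neither, did likewise, with 354.5 to 3391.9, against 45420.4 to 72198.6, which is 35.0-fold.

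A further probe set of Rcan1 had 60.5 to 834.1 on the 3 arrays, against 3532.9 to 4960.6 on the other 7 (at least 13.3-fold lower than in the other trained mice, as the value of 60.5 was set to the floor of 104), one of Ldb3 had 1896.2 to 2965.4, against 4008.5 to 7009.3 (2.36-fold), and one of Tpm1 had 817.1 to 1469.7, against 1767.2 to 3060.3 (2.54-fold). Pdlim5 split otherwise: a further probe set had 4700.6 in trained plakoglobin (+/-) mouse 1 and 5850.2 in trained wildtype mouse 1 but 34019.7 in trained wildtype mouse 2, whose GAPDH ratio was the highest, and Nebl showed the same 2 low mice.

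In all, 5 of 55 member probe sets (9.09%) did not overlap between the 3 arrays and the other 7, against 10.1% of all tested. Of these 4 were lower on the 3 arrays (7.27%, against 5.89% of all) and 1, Fhl1, higher (against 4.26% of all). Further, 8 of 55 (14.5%) were more than 1 log2 unit lower there than in the other trained mice, against 6.40% of all. Fitted values of such probe sets moved when the 3 arrays were left out: the training difference of the second Myh6 probe set was -1.28 (SE 1.86), and 0.40 without the 3 arrays. That of the further Rcan1 probe set was -1.27 (SE 1.43), with 1 value at the floor, and 0.04 without them. Of 12 genes with several tested probe sets, the probe sets differed in sign for 6 in the training comparison and for 5 in the genotype comparison. No source used here gives where each probe set lies along its transcript.

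**Figure D4:**
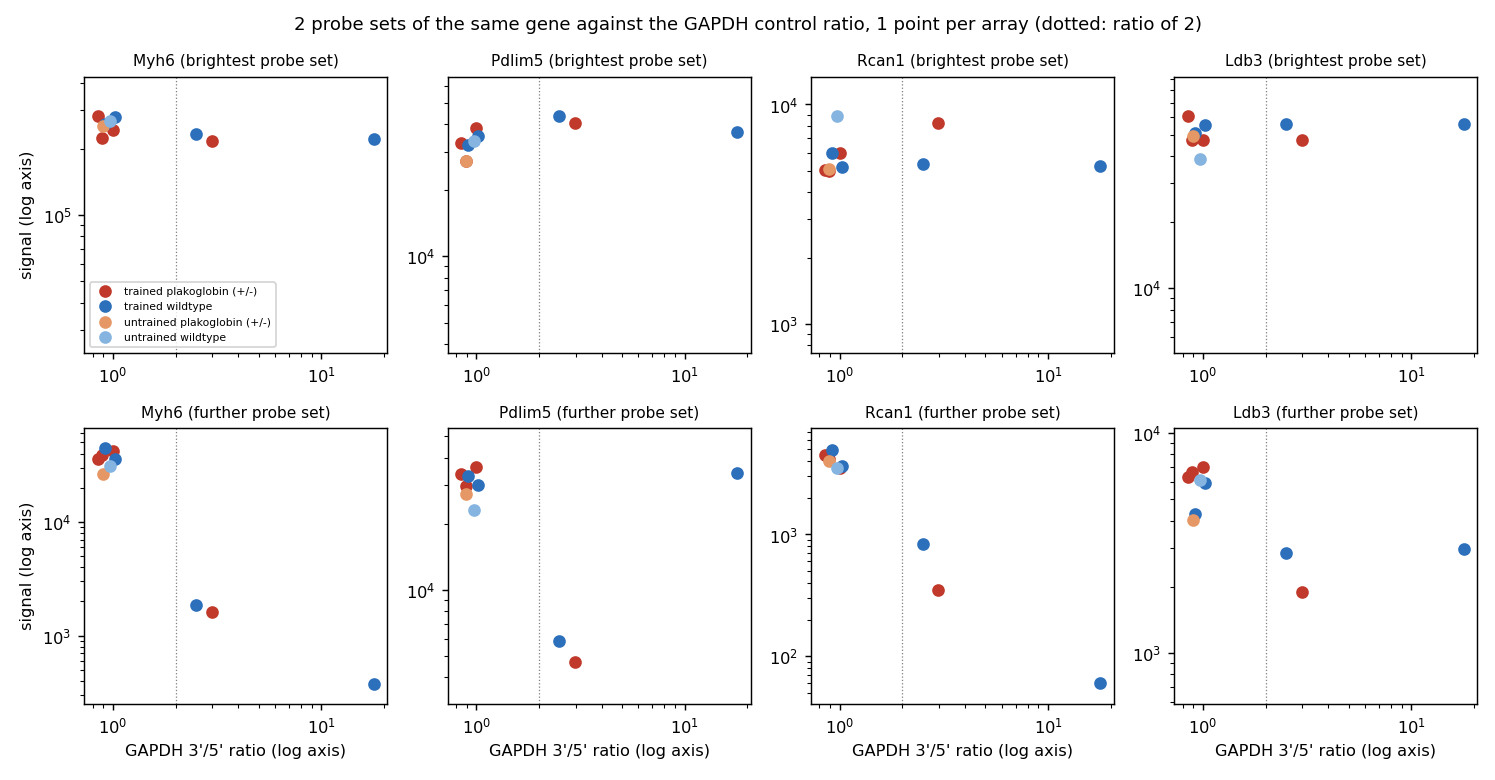
Signal of the brightest probe set (top) and of a further probe set (bottom) of Myh6, Pdlim5, Rcan1 and Ldb3 against the GAPDH ratio (3′ over 5′), 1 point per array, both axes logarithmic, with a dotted line at a ratio of 2. The further probe sets of Myh6, Rcan1 and Ldb3 are low on all 3 arrays right of the line (375.5 to 1873.7 for Myh6), that of Pdlim5 on 2 of them, and the brightest probe sets are not.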

How the data were processed

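Per the labels, TRIzol was used for extraction and biotin for labelling of cRNA. The deposited values are signals in the unit intensity on a linear scale, made by the authors with MAS5 version 5.0, per the submitters' processing notes. No detection calls were used here, and the number of arrays limits the precision. Signals under 104, the 10th percentile, were set to 104 before taking log2. Control probe sets (64) were set aside, and 13576 probe sets at or above the 40th percentile of mean log2 signal were tested with limma 3.58.1 (R 4.3.3; eBayes with trend, two-sided, Benjamini-Hochberg over all 13576, threshold 0.05); the code was tested on simulated data. Of all probe sets, 20393 carried 1 symbol, 691 several and 1606 none. The training fit used 10 mice with training, genotype and sex, and the genotype and sex fit 8 trained mice. The series states littermate pairs, but the labels do not tie mice into pairs, so the fits treated mice as independent. P-values set each difference against the spread between these mice. That spread comes mostly from the trained mice, since each untrained group held 1 mouse, assumed to vary like the others.

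The 40 genes, the other gene lists and the markers were chosen with earlier results of these data known. Values per mouse are given for members called in any comparison, for the 10 with the largest training or genotype difference and for isoform pairs. Of other lists, called genes and up to 4 with the largest differences could be named, and any other gene named was chosen after its values were seen. Alternatives were quantile normalization, other floors and filters, no trend, no sex term, females alone, removal of the 3 arrays with a GAPDH ratio above 2, that ratio as a covariate and leaving out each mouse. Correlations between members across mice are not reported, because several member probe sets lay apart on the 3 arrays with a GAPDH ratio above 2.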

Additional observations from a re-analysis of the deposited data

Results flagged for a closer look

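In each trained group of 4 mice, the highest or lowest log2 signal of every gene's representing probe set was set against the other 3. A mouse stood apart when its gap to the nearest other, over the group's range, was above the 95% critical value of Dixon's test, which chance gives in about 1 of 20 groups, and 6 of 78 groups had such a mouse. Myl1 was 151.0 in trained wildtype mouse 1, against 1657.7 to 2016.2 in the other 3 mice of that group. Nebl was 388.5 in trained plakoglobin (+/-) mouse 1, against 2621.3 to 3312.9 in the other 3. Pdlim1 was 10738.3 in the same mouse, against 7016.8 to 7398.8. These 2 mice had arrays with a high GAPDH ratio, and the part of that ratio in these values was not tested. Tnnt2 was 287211.4 in trained wildtype mouse 4, against 230760.7 to 238371.1. Ldb3 was 61000.9 in trained plakoglobin (+/-) mouse 4, against 47396.5 to 47539.7, and 51190.3 in trained wildtype mouse 3, against 55645.8 to 56259.8. The last 3 values are from arrays whose GAPDH ratio was at most 1.02.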

How the results depend on the processing

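No paired analysis was possible because littermates are not identified in the labels and the mouse numbers are record order. For training, 85 probe sets were called, 225 without the 3 arrays of high GAPDH ratio and 10 to 87 as 1 mouse was left out, with 10 without the untrained plakoglobin (+/-) mouse, 34 without the untrained wildtype mouse, 51 and 53 without trained plakoglobin (+/-) mouse 3 and 4, and 50 without trained wildtype mouse 4. Of the members, 1 was called, 2 without the sex term and 2 without the 3 arrays (Alpk3 besides Pdlim3), and 0 to 1 as 1 mouse was left out. Leaving out an untrained mouse leaves 1, assumed to vary like the others. For genotype, 0 were called under every alternative run. For sex, 7 probe sets were called, 13 after quantile normalization, 15 with the floor at the 25th percentile, 2 with no filter, 11 with the filter at the 60th percentile, 1 with no trend, 17 without the 3 arrays, 16 with the GAPDH ratio as a covariate and 1 to 12 as 1 mouse was left out. For genotype by training, 0 were called, 66 with no filter, 1 after quantile normalization, 1 without the 3 arrays and 0 to 1 as 1 trained mouse was left out; without an untrained mouse this could not be fitted. The cause was not tested. Signs of uncalled differences turned under some alternative for 21 of 55 member probe sets in training and 32 of 55 in genotype, and no called value turned.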
